A study of Mus musculus with 8 samples.

Results

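Ethanol was compared with no ethanol in NS5 cells, a mouse neural stem cell line that grows attached in culture, with both growth factors of the study pooled. All 8 arrays of the series entered: 4 from cells given ethanol at 400 mg/dl and 4 from cells without it. The groups were FGF2, TGF-beta1, Ethanol and FGF2, and Ethanol and TGF-beta1, with 2 arrays each, and the treatment lasted 48 h. Every group shared the steps before it: plating with FGF2 and EGF for 24 h, then 4 h free of growth factors. The labels trace the cells to brain at E11.5, an embryonic stage that every group shares, and give 10 ng/ul for each growth factor, a unit the signals cannot check. A single line was used, and the labels do not say whether replicates were separate cultures, so p-values measure only the spread between these samples, which may be technical.

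Neural stem cells divide while a mitogen such as FGF2 is present and can leave the cell cycle to become neurons or glia. TGF-beta1 signals through Smad proteins and is known to slow the division of many cell types. In most vertebrate cells, E2F proteins drive genes of DNA synthesis, while the DREAM complex and Foxm1 act through a short promoter element called CHR on genes of mitosis. Ethanol is known to reduce the growth of neural precursors, and the series set out to find transcripts that change with it in cycling cells.

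The arrays gave 1 signal for each of 45101 probe sets, scaled by the authors to the same trimmed mean. The median signal ran from 50.6 to 86.5, and the 2 lowest belonged to the replicate 1 arrays without ethanol. The Gapdh 3'/5' ratio, which rises as RNA is degraded or copied in part, was 3.33 and 3.48 on the arrays labelled Ethanol and FGF2 and 1.64 to 2.20 on the other 6. The Actb 3'/5' ratio was 3.57 and 4.20 on the arrays labelled Ethanol and FGF2, 3.61 on FGF2 replicate 2 and 2.35 to 3.07 on the rest. The part of these ratios in the results was not tested. Of the stem and radial glia markers, Sox2, Vim, Fabp7, Slc1a3, Msi1 and Pax6 had no signal below 884 (Pax6, FGF2 replicate 2), Nes lay between 367 and 1254, and Prom1 did not exceed 55.5. Summed over the 34 markers on that list, the signal was 143230.0 to 225740.0 without ethanol and 183586 to 208059 with it. Of 12 endothelial and 14 microglial markers, 0 and 1 passed the signal filter. Of 15 pluripotency markers 3 passed it and 0 were called. Of 21 mesenchymal and smooth muscle markers 7 passed, with 6 above 0, a median log2 fold change of 0.67 with ethanol and 0 called. Their summed signal was 1732 to 2754 without ethanol and 1956 to 3999.6 with it. Acta2, smooth muscle actin, was at 223 on Ethanol and FGF2 replicate 1 and 751 on Ethanol and TGF-beta1 replicate 2 and did not exceed 88.4 on the other 6. The part of these markers in the results was not tested.

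A pair of arrays stood apart from their labels. Fn1, fibronectin, which TGF-beta1 is known to raise, had signals of 119.7, 139, 3015 and 4109 on the arrays without ethanol, in the order FGF2 replicates 1 and 2, then TGF-beta1 replicates 1 and 2. With ethanol it had 6828, 116, 124 and 8226 in the same order. The array labelled Ethanol and FGF2 replicate 1 was high while replicate 1 of Ethanol and TGF-beta1 was low, the reverse of the other arrays of each growth factor, and Pmepa1, a TGF-beta target, gave the same order (8198, 1057, 1081 and 7454 with ethanol). Both carry ethanol by label, so an exchange between them would not alter which arrays are compared, but it would enter the spread and the growth factor term. Results that rest on them are given below with and without both, and these are called the 2 arrays at odds with their labels. Signals are listed throughout in the order just given.

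Of 10916 genes past the signal filter, 238 passed an adjusted p of 0.05 in the additive model of ethanol and growth factor (2.18% of all tested; limma with Benjamini-Hochberg adjustment). 209 fell (1.91%) and 29 rose (0.266%). A change of 2-fold or more was seen in 195 falls and 18 rises. A log2 fold change here is the difference, with ethanol minus without, of log2(signal + 23.7), which understates the change of dim genes. Hand-written lists of well-known cell division genes held 450 of the genes tested. In them 178 fell, 0 rose and 400 lay below 0, with a median of -0.75, while the median over all genes tested was 0.03. Among the 10466 genes outside these lists, 31 fell (0.296%) and 29 rose (0.277%). Of the falls 28 had every array with ethanol below every array without it, as did 486 of all genes tested (4.45%). Of the rises 28 had the arrays apart in the other direction, against 325 of all genes (2.98%; 811 or 7.43% in either direction). The rule that named the genes of largest change, inside and outside these lists, asked for no overlap. For those genes the lack of overlap is therefore no further support. In bulk samples, fewer cells of a kind and less RNA per cell cannot be told apart.

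**Figure D1:**
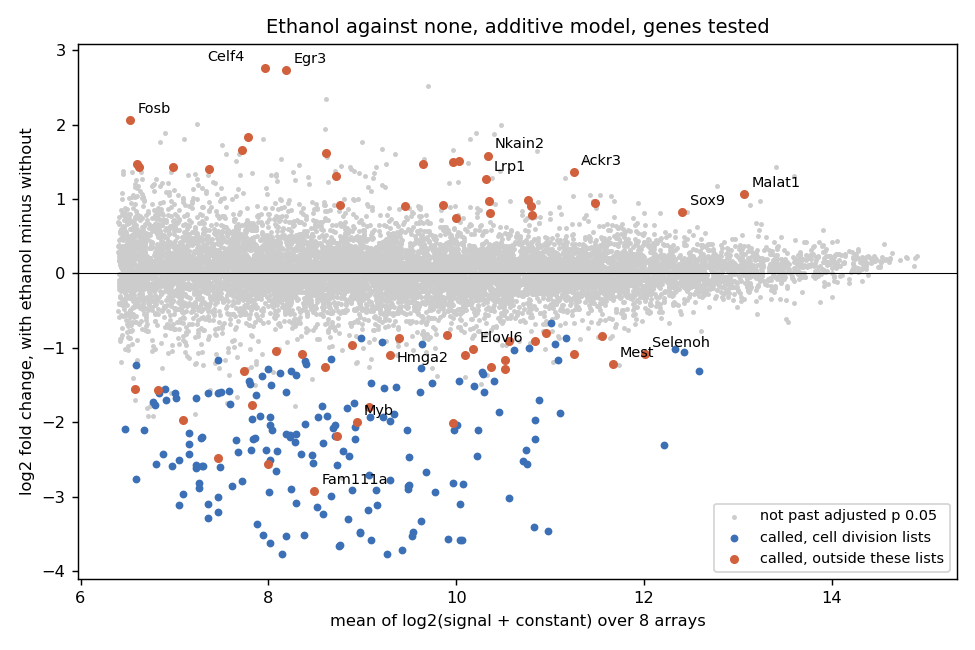
Log2 fold change of each gene tested (with ethanol minus without, vertical axis) against its mean of log2(signal + 23.7) over 8 arrays. Grey points did not pass an adjusted p of 0.05, blue points are the 178 called genes of the cell division lists, all below 0, and orange points are the 31 falls and 29 rises outside them.

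Of the 13 cell division lists, those of cytokinesis, the kinetochore and the spindle had the lowest medians. In the cytokinesis list 13 of 16 genes fell, with a median of -3.02. Prc1, which bundles the microtubules of the central spindle, had signals of 4205, 1646, 4936 and 4969 without ethanol and 209, 228, 293 and 433 with it, and fell by 3.58 ± 0.27 (SE) on the log2 scale (adjusted p 0.000994). The 2 sets of arrays were far apart, with the lowest array without ethanol, FGF2 replicate 2, still several-fold above the highest with it. Pimreg (-3.78) and Pbk (-3.58), a mitotic kinase, also fell. Of kinetochore, checkpoint and passenger complex genes 30 of 46 fell (median -2.20), among them Nuf2 (-3.49), Birc5 (-3.46) and Aurkb (-3.37). Of kinesins and spindle proteins 26 of 46 fell (median -1.77), led by Knstrn (-3.78) and Hmmr (-3.65).

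Cyclins, their kinases and activators fell in 15 of 26 cases (median -1.30). Cdk1, the kinase that drives entry into mitosis, had signals of 2603, 1026, 4171 and 3308 without ethanol and 69.2, 207, 226 and 446 with it, so that no array with ethanol reached the lowest without it, and it fell by 3.48 ± 0.37 (SE, adjusted p 0.000994). Ccnb2, a B-type cyclin, and Cdc25c, the phosphatase that activates Cdk1, each fell by 3.52. Ccnd1, the D-type cyclin induced by mitogens, fell by 1.45 ± 0.26. Other members of the same step had values that did not pass: Cdk4 (-0.03), Cdk6 (-0.59) and Ccnd3 (0.25).

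Lists of DNA synthesis had medians nearer to 0. In the list of origin licensing and fork proteins 34 of 64 fell (median -1.16), from Gmnn, the licensing inhibitor geminin (-2.90), to Pcna, the sliding clamp (-1.02, adjusted p 0.0399). Mcm5, a subunit of the replicative helicase, had signals of 921, 645, 1659 and 967 without ethanol and 101, 159.6, 136 and 364 with it, with no overlap. Pclaf, a partner of the clamp, and Pole, the leading-strand polymerase, fell by 2.83 and 2.59. Orc4, a subunit of the origin recognition complex, stood at 0.19 and did not pass. Among enzymes of deoxynucleotide synthesis 5 of 13 fell, including thymidine kinase Tk1 (-3.66) and both ribonucleotide reductase subunits Rrm1 and Rrm2 (-1.93 and -2.30), while Tyms, thymidylate synthase, was at 0.05 on a dim probe set. Of histones and replication-coupled chromatin genes 10 of 38 fell, led by Uhrf1 (-2.56), Atad2 (-2.47) and Hmgb2 (-2.22).

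The remaining lists were split between genes that fell and genes that did not pass. In the anaphase-promoting complex list 3 of 19 fell: the E2 enzyme Ube2c (-3.32), the activator Cdc20 (-3.29) and the inhibitor Fbxo5 (-1.60). The core subunits Cdc16 and Anapc1 stood at 0.08 and 0.11. Of condensin, cohesin and chromatid separation genes 11 of 24 fell, among them Esco2 (-3.62), Ncapg (-3.53) and Pttg1 (-3.41), whereas the cohesin subunit Smc3 was at 0.01. In the list of E2F, DREAM and Foxm1 regulators 5 of 18 fell (E2f7, E2f8, Foxm1, Melk and Rbl1), while Rb1 and E2f4 had values of 0.38 and 0.22. Top2a, the topoisomerase that untangles sister chromatids, had 4176, 2200.4, 5792 and 6203 without ethanol and 419, 442, 373 and 948 with it, and Mki67, the proliferation marker Ki-67, 1866, 1123, 2506 and 3244 without ethanol against 298, 246, 237 and 462 with it, both without overlap. Recombination and replication stress genes fell in 16 of 51 cases, centrosome genes in 3 of 41 (Stil at -2.21 and Sass6 at -0.87 among them) and other genes of proliferation signatures in 19 of 64. The recombination falls held Rad51ap1 (-2.58), Parpbp (-2.55) and Cip2a (-2.46), and the proliferation signature falls Cdca3 (-3.71), Cdca2 (-3.11) and Pif1 (-2.88). FGF2 replicate 2 was the lowest array without ethanol for 161 of the 178 falls.

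Outside these lists the falls included genes with roles next to those of the lists. Fam111a, a protease that works at replication forks (chr19:12573510-12589769, gene span in GRCm38.p6, as for the positions below), had signals of 1042, 525, 1396 and 1140.3 without ethanol and 81.8, 92.8, 75.1 and 215 with it. Every array with ethanol was below every array without it, and the gene fell by 2.93 ± 0.31 (SE, adjusted p 0.00104), the largest fall outside the lists. Bora, which helps Aurora A activate Plk1, had 2223, 859, 2564 and 3120.3 without ethanol and 398, 417, 468 and 641 with it and fell by 2.01 ± 0.29. The 2 sets were apart here as well. The falls also held Pmf1 (-1.76 ± 0.31), a kinetochore subunit, Ddx11 (-1.31 ± 0.27), a helicase of sister chromatid cohesion, Dnajc9 (-1.17 ± 0.19), a histone chaperone, and Mdc1 (-1.08 ± 0.18), a mediator of the DNA damage response. Mdc1 had 3810.4, 2456, 4359 and 3781 without ethanol and 1416, 1580.1, 1619 and 2091 with it, and Pmf1 425, 203, 529.7 and 514 without ethanol against 78.6, 138, 80.2 and 110.1 with it, with FGF2 replicate 2 the nearest to the arrays with ethanol in both. G2e3 (-1.25), a ubiquitin ligase named for its G2/M expression, Fam72a (-1.10) and Wdr76 (-1.08) fell too. That these belong beside the lists was decided after their values were seen.

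Promoters of 4 genes outside the lists are printed to show the letters that cell cycle factors are known to read, from 250 bases before to 50 after the first listed start, 5′ to 3′ on the gene's strand (RefSeq, GRCm38.p6). Matches to CHR, CCAAT, E2F, CRE, AP-1 and EGR letters are in capitals. Fam111a lies at chr19:12573260-12573559 (plus strand), Pmf1 at chr3:88410348-88410647 (minus), Mdc1 at chr17:35841248-35841547 (plus) and Nkain2, the rise described below, at chr10:32889866-32890165 (minus).
Fam111a: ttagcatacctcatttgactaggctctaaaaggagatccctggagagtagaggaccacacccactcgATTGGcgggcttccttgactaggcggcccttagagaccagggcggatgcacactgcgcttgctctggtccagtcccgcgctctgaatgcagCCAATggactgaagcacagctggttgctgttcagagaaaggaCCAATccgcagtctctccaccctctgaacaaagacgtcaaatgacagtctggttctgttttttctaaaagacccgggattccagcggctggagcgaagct
Pmf1: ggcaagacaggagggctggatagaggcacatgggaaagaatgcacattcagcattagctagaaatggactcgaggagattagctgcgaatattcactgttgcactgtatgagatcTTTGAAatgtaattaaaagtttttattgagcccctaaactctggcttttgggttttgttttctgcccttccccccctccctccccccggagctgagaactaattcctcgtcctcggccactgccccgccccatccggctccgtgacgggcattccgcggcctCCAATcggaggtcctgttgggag
Mdc1: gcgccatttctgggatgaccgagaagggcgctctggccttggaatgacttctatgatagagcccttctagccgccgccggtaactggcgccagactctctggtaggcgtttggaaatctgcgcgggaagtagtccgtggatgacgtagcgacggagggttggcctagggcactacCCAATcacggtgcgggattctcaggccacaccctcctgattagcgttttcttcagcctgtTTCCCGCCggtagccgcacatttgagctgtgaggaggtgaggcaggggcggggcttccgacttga
Nkain2: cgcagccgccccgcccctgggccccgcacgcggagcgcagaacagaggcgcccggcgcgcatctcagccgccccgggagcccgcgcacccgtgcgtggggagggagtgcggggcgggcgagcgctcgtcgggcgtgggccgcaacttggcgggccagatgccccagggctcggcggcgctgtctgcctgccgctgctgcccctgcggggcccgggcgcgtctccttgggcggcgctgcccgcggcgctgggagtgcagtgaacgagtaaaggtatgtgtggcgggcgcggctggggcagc
Of the letters put in capitals, Fam111a held CCAAT only, Pmf1 a CHR and a CCAAT match, Mdc1 a CCAAT and an E2F match, and Nkain2 no match. GC boxes, counted below, were not marked, and Fam111a and Nkain2 hold their letters. These genes were picked by hand, so they do not stand for falls and rises in general. Among other falls Myb and Mest held no match, and among other rises Lrp1 and Fosb held E2F letters.

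The letters were searched on both strands in every promoter of that length. CHR was TTTGAA, and E2F any of TTCCCGCC, TTTGGCGC and TTTCGCGC. A gene counted if any of its listed starts held a match. CHR letters stood in 44.8% of the 145 cell division falls with a promoter in the table, in 7 of 27 falls outside the lists (25.9%), in 2 of 20 rises and in 14.1% of 8927 genes tested. E2F letters stood in 22.8%, 18.5%, 15.0% and 6.58% of the same sets. CCAAT was found in 66.2%, 63.0%, 35.0% and 43.8%. The letters of CRE (TGACGTCA), AP-1 (TGAGTCA) and EGR (GCGTGGGCG) were each held by at most 1 of the falls and at most 1 of the rises outside the lists, while GC boxes (GGGCGG), which can overlap EGR and E2F letters, were in 70.4% of those falls, 80.0% of the rises and 70.3% of genes tested. These shares are a description: a match is not a site.

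Another set of falls had other roles or are named here without one. Myb, a transcription factor of progenitor cells (chr10:21124930-21160984), had signals of 1014, 499.6, 1282 and 1282 without ethanol and 173, 243, 194 and 295 with it and fell by 2.00 ± 0.27 (SE, adjusted p 0.00307). Its arrays did not overlap, and all 3 probe sets had the same sign. Rps6ka6, the kinase RSK4 (chrX:111387837-111538097), had 2690.1, 1625, 2625 and 2258 without and 653, 839, 1206 and 1064 with ethanol and fell by 1.28 ± 0.20 (adjusted p 0.00811). Mest, an imprinted gene for a hydrolase-like protein (chr6:30733506-30748466), had 5617, 3797, 4369 and 6343 without ethanol against 1908, 1845, 2126 and 2641 with it and fell by 1.22 ± 0.19 (adjusted p 0.00716). For all of these the highest array with ethanol was below the lowest without it, a condition of the rule that named them. D17H6S56E-5, named here by the symbol of the probe table, fell by 2.56 ± 0.34 and BC055324 by 1.80 ± 0.28, each on 2 probe sets of the same sign.

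Hmga2, a chromatin protein of immature neural stem cells, had signals of 1219.7, 2041, 2064 and 1194 without ethanol and 803, 703, 782 and 616 with it and fell by 1.10 ± 0.23 (adjusted p 0.0381). It was highest on FGF2 replicate 2 and TGF-beta1 replicate 1, and 3 of its 4 probe sets had this sign. Selenoh, a nucleolar selenoprotein, had 6729.6, 3561, 7424 and 7072 without ethanol against 2146, 3349, 3219 and 2659 with it, so that FGF2 replicate 2 lay just above the arrays with ethanol. Neurl1b, a ubiquitin ligase for Notch ligands, went from 486, 99.4, 943 and 483 without ethanol to 36.6, 51.4, 45.9 and 76.8 with it and fell by 2.48 ± 0.46, with FGF2 replicate 2 again low. Nrm, a protein of the inner nuclear membrane, fell by 1.98 ± 0.40, although 1 of its 2 probe sets had the other sign. Mtfr2, a mitochondrial protein, and Dglucy, an enzyme of D-glutamate breakdown, fell by 1.56 and 1.26.

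Smaller falls included enzymes and RNA-handling proteins. Elovl6, a fatty acid elongase and SREBP target, had signals of 1502, 1771, 1771 and 1456 without ethanol and 798, 967, 926 and 542 with it and fell by 1.01 ± 0.20 (adjusted p 0.0305). Prps1, which makes the ribose phosphate donor of nucleotide synthesis, had 2383, 2517, 2798 and 2698 without ethanol against 1234, 1367, 1450.1 and 1973 with it and fell by 0.80 ± 0.16. In both cases the arrays did not overlap. Dkc1, dyskerin, which modifies ribosomal RNA and binds telomerase RNA, had 2399, 2688, 2354 and 2495 without ethanol against 1069.9, 1420.5, 1317 and 1469.7 with it, a narrow range on each side, and fell by 0.91 ± 0.16 (adjusted p 0.0151). Ddx39a, a helicase of mRNA export (-0.90), Ppil1, a spliceosomal isomerase (-0.87), Sfxn1, a mitochondrial serine carrier (-0.84), Ptrhd1 (-0.96) and Micalcl (-1.05) fell as well. For 3 of the 31 falls the arrays overlapped. Tnfaip6, which binds hyaluronan, had 1156, 269, 1634 and 1170.1 without ethanol against 114, 118, 165 and 404 with it, where FGF2 replicate 2 was below the highest array with ethanol. Mboat1, a lysophospholipid acyltransferase (-1.56), and Neto2, an auxiliary subunit of kainate receptors (-0.83), were the others.

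Of the rises outside the lists, Nkain2, which interacts with the sodium pump, had the smallest p (chr10:31689310-32897174). Its signals were 913, 745, 611 and 656 without ethanol and 2428, 1861, 2437 and 2180.1 with it, a rise of 1.58 ± 0.18 (SE, adjusted p 0.00118) with no overlap and with both probe sets alike. Celf4, an RNA-binding protein of neurons, had 65.6, 241, 14.9 and 69.9 without ethanol against 483, 832, 846 and 447 with it, a rise of 2.76 ± 0.46 (adjusted p 0.0114) from dim levels. Col27a1, a fibrillar collagen, had 291, 226, 124 and 188 without ethanol against 739, 799, 780.1 and 412 with it and rose by 1.62 ± 0.25 (adjusted p 0.00618). Ethanol and TGF-beta1 replicate 2 was the lowest of its arrays with ethanol and still above all arrays without. These 3 rises passed with each of the 8 arrays left out in turn, as did 7 of the falls outside the lists (Fam111a, D17H6S56E-5, Bora, Myb, BC055324, Rps6ka6 and Mest). Without both arrays at odds with their labels, Celf4, Col27a1 and Mest did not pass.

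Several rises encoded receptors and surface proteins. Lrp1, an endocytic receptor of the LDL receptor family (chr10:127538157-127621148), had signals of 624, 788, 714 and 1142 without ethanol and 2575, 1717, 1623 and 2059.5 with it and rose by 1.28 ± 0.23 (adjusted p 0.0167). Sorcs2, a sorting receptor for proneurotrophins, had 89.7, 93.8, 69.7 and 62.9 without ethanol against 220.3, 268, 185 and 331 with it and rose by 1.40 ± 0.25, also with no overlap. Ackr3, a scavenging receptor for Cxcl12 (chr1:90203980-90215724), had 2272, 1907, 873 and 1329.7 without ethanol against 3004, 4073, 4495 and 4177 with it and rose by 1.36 ± 0.27 (adjusted p 0.0276). Within the labelled FGF2 arrays its difference was 0.74 and within the labelled TGF-beta1 arrays 1.98. Fzd3, a Wnt receptor with a part in axon growth, rose by 0.79 ± 0.17. All 6 of its probe sets had that sign, but their values differed, at 0.12, 0.18, 0.21, 0.27, 0.79 and 0.98. Sez6, a surface protein of neurons, rose by 1.49 ± 0.30 (from 885, 883, 272 and 503 without ethanol to 1424, 1892, 1333 and 2105 with it), and Tenm2, an adhesion protein, by 1.43 ± 0.30 with 2 of 4 probe sets of that sign. Tenm2 was dim without ethanol (26.5 to 83.3), and its other probe sets stood at 0.50, -0.28 and -1.25.

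Some of the rises encoded transcription factors. Insm1, a factor of neuronal and neuroendocrine progenitors (chr2:146221997-146225020), had signals of 268, 246, 220.0 and 244 without ethanol and 509, 734, 508 and 889.5 with it and rose by 1.31 ± 0.23 (adjusted p 0.0144). Dlx2, a factor of inhibitory neuron precursors, had 252, 315, 294 and 318 without ethanol against 559, 584, 635 and 524 with it and rose by 0.91 ± 0.18. Sox9, a factor of radial glia and astrocytes, had 5107, 3572, 4342 and 3421 without ethanol against 7736, 7504, 6111 and 7591 with it and rose by 0.82 ± 0.17 (adjusted p 0.0353). None of the arrays of these genes overlapped between the 2 conditions. Plagl1, an imprinted zinc finger gene, rose by 1.48 ± 0.33 (adjusted p 0.0491). Its level without ethanol was dim (15.2 to 69.5), and its other probe sets stood at 0.05 and -0.14. The gene passed in 1 of the 8 fits with 1 array left out. Camta1, a calmodulin-binding activator, rose by 0.92 ± 0.17.

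The remaining rises were of mixed function. Pak3, a Rac effector kinase, had 77.0, 199.9, 50.0 and 89.1 without ethanol and 268, 421, 578 and 367 with it and rose by 1.84 ± 0.36. All 4 of its probe sets had that sign, from 0.35 to 1.84. Retreg1, a receptor for autophagy of the endoplasmic reticulum, had 798, 394, 518 and 759 without ethanol against 1051, 2611, 2237 and 1467 with it and rose by 1.51 ± 0.32. Cpt1a, which admits fatty acids to mitochondria, had 2511, 2112, 2134 and 1508 without ethanol against 3553, 5153, 3099 and 4253 with it and rose by 0.95 ± 0.20. None of these overlapped between conditions. Abhd3, a phospholipase, rose by 1.66 ± 0.33, Adamtsl1, a matrix protein, by 1.47 ± 0.31, Amotl2, a partner of YAP, by 0.99 ± 0.19, and Otud1, a deubiquitinase, by 0.97 ± 0.18. Prl2b1 (1.42, 1 of 2 probe sets), 4930402H24Rik (0.91), Hdgfl3 (0.91), Fam189a2 (0.82) and Coro7 (0.74) made up the rest. Prl2b1 was dim, at 18.4 to 77.4 without ethanol and 95.7 to 173 with it. It passed in 1 of the 8 fits with 1 array left out. Hdgfl3 had 2 of 3 probe sets of that sign, and another of them, which stood for the gene without Ethanol and FGF2 replicate 2 or without replicate 1 of Ethanol and TGF-beta1, gave -0.013 and -0.011. Coro7 passed in 0 of the 8 fits with 1 array left out. TGF-beta1 replicate 1 was the lowest array without ethanol for 18 of the 29 rises, and FGF2 replicate 2 for 20 of the 31 falls.

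**Figure D2:**
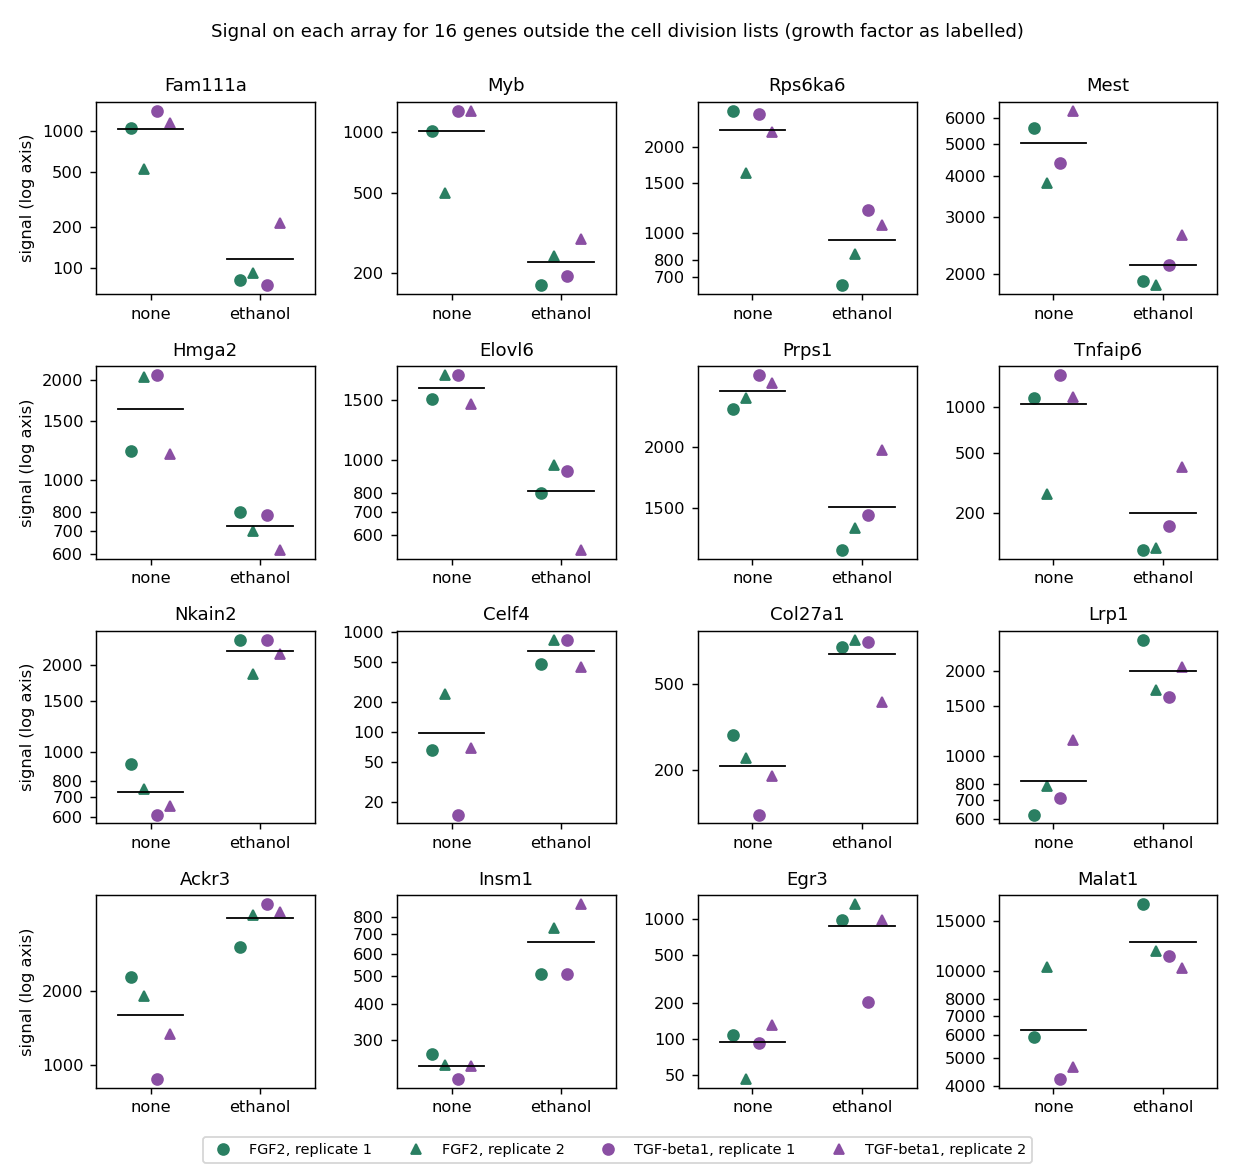
Signal (log axis) on each array for 16 genes called outside the cell division lists, without and with ethanol. Colour gives the growth factor as labelled, shape the replicate number, and the line the mean of 4 arrays. Nkain2 runs from 611 to 913 without ethanol and from 1861 to 2437 with it, while Tnfaip6 and Malat1 overlap.

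Of the 31 immediate-early genes written in their list, which are switched on within minutes by growth factors or stress, 27 passed the filter. 24 of the 27 lay above 0, with a median of 0.71, and 2 rose. Egr3 had signals of 108, 46.4, 92.0 and 131 without ethanol and 997, 1338, 204 and 990.0 with it and rose by 2.73 ± 0.51 (SE, adjusted p 0.0198), with replicate 1 of Ethanol and TGF-beta1 far below the other 3 and 1 of its 2 probe sets of that sign. Fosb rose by 2.06 ± 0.43 (adjusted p 0.0353) from 26.2, 3.04, 23.7 and 43.2 without ethanol to 213, 318, 83.2 and 123 with it, so its level without ethanol was dim.

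The other immediate-early genes had values that did not pass. They were Egr2 (2.52), Zfp36 (1.48), Fos (1.43), Nr4a1 (1.36), Ier2 (1.36), Egr1 (1.31), Atf3 (1.26), Junb (1.19), Nr4a3 (1.17), Jun (0.82), Ier3 (0.77) and Fosl2 (0.71) at the upper end. The rest were Myc (0.41), Btg2 (0.35), Dusp1 (0.35), Jund (0.32), Maff (0.30), Nr4a2 (0.29), Klf2 (0.27), Klf10 (0.21), Klf4 (0.16), Ier5 (0.05), Klf6 (-0.0028), Homer1 (-0.20) and Srf (-0.21). Fos, which pairs with Jun in the AP-1 factor, had 11538, 1266, 9231 and 13682 without ethanol and 19159, 19099.8, 14528 and 18830.3 with it, so FGF2 replicate 2 stood far below the other arrays without ethanol. Jun had 4042, 4285, 4099.5 and 4354 without ethanol against 10054, 7592, 4820.5 and 8277 with it, with no overlap and an adjusted p of 0.0901. FGF2 replicate 2 was the lowest of the 4 arrays without ethanol for 14 of the 27, and replicate 1 of Ethanol and TGF-beta1 was the lowest of those with ethanol for 21. The median of the list ran from 0.41 to 1.03 with 1 array left out. It was lowest without replicate 2 of Ethanol and TGF-beta1 and highest without replicate 1 of that group, and was 0.62 without both arrays at odds with their labels.

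Of 14 chemokine genes written, 4 were tested. Ackr3, described above, rose, and Cx3cl1 (1.19, adjusted p 0.186), the ligand of a microglial receptor, did not overlap between conditions, with 378, 418, 273 and 423 without ethanol and 1425, 594, 476 and 1391 with it. Cxcr4, the signalling receptor for Cxcl12, had 5659, 3878, 5294 and 4969 without ethanol against 5242, 7395, 7791 and 7949 with it, a value of 0.51 with an adjusted p of 0.286, and Ackr1 was at 0.13.

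Among long noncoding RNAs, 1 of 14 tested rose and the median was 0.36. Malat1, an abundant nuclear RNA, had signals of 5904, 10350.4, 4231 and 4653 without ethanol and 17114, 11790.1, 11280.2 and 10276 with it and rose by 1.07 ± 0.21 (adjusted p 0.0300), with all 7 probe sets alike. FGF2 replicate 2 was just above the lowest array with ethanol, so the arrays overlapped. Kcnq1ot1 (1.94, adjusted p 0.123), an imprinted antisense RNA, Miat (1.49), Dleu2 (1.00), Neat1 (0.68), Gas5 (0.49), Rian (0.39) and Snhg12 (0.33) did not pass. Sox2ot, Pvt1, Snhg3, Snhg5, Snhg1 and Tug1 lay between -0.13 and 0.16. The median ran from 0.29 without TGF-beta1 replicate 1 to 0.60 without FGF2 replicate 2.

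Of 42 lists outside cell division, 32 had a median above 0 and 10 below, and with median centring of the arrays 27 were above and 15 below. Over all genes tested 54.0% lay above 0. Single arrays moved many of these medians: those of 38 of the 42 lists moved by over 1.5 times when 1 array was left out, and the lowest and highest are given beside each such list whose median is printed. Neuronal cytoskeleton and RNA-binding markers had a median of 0.38, with 20 of 25 above 0 and Celf4 called. Tubb3, a neuronal tubulin, had signals of 88.1, 207, 20.3 and 96.5 without ethanol and 452, 287, 301 and 215 with it, a value of 1.60 that did not pass (adjusted p 0.0725). Its arrays were apart, but only just. Dcx, doublecortin, a protein of migrating neurons, had 314, 742, 56.5 and 109 without ethanol and 569, 751, 1013 and 413 with it, which overlap (adjusted p 0.224). TGF-beta1 replicate 1 was the lowest array for both genes. Summed over the 35 neuronal markers on the array, the signal was 31697 to 44653 without ethanol and 38878 to 46666 with it, and Stmn2, a defining marker, did not exceed 50.5. The median of the neuronal list ran from 0.24 without TGF-beta1 replicate 1 to 0.56 without TGF-beta1 replicate 2.

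Other neural lists held 2 calls or fewer each. Proneural and neuronal transcription factors had 2 of 21 (Insm1 and Dlx2, median 0.18) and stem and radial glia markers 1 of 29 (Sox9, median 0.17). Synaptic and vesicle genes had Sez6 of 36 (median 0.30) and ion channels and pumps Nkain2 of 40 (median 0.15). Over all genes tested 1188 (10.9%) were at an unadjusted p under 0.05 by limma, the background for the counts at that level from here on. Axon guidance genes had 0 calls of 43 and 5 at that level, a share near the background. The netrin receptor Dcc was the nearest to passing, at 1.33 with an adjusted p of 0.120, before Sema4b (-0.54) and Ephb1 (0.78). Neural adhesion molecules had 0 of 40 and 7 at that level, with Tmeff2 (1.89), Nrcam (0.60) and Pcdh19 (0.93) of smallest p. Receptors and enzymes of GABA, glutamate, glycine and acetylcholine signalling had 0 of 22 and 2 at that level, with Gabbr1 (0.48), Gad1 (1.20) and Gabrg3 (0.85). Leaving out 1 array, the proneural median ran from 0.06 without TGF-beta1 replicate 1 to 0.27 without FGF2 replicate 1 and the stem and radial glia median from 0.05 without Ethanol and FGF2 replicate 2 to 0.20 without FGF2 replicate 2. The synaptic median ran from 0.14 without FGF2 replicate 1 to 0.37 without TGF-beta1 replicate 2 and that of ion channels from 0.11 without FGF2 replicate 1 to 0.26 without FGF2 replicate 2. For receptors of GABA and the other transmitters the range was 0.11 without FGF2 replicate 1 to 0.55 without FGF2 replicate 2.

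Glial lists had 0 calls by limma. Of 23 astrocyte markers 3 were at an unadjusted p under 0.05 (10.9% of all genes were), the median was 0.24, and Clu (1.54), Atp1b2 (0.53) and Aqp4 (0.58) had the smallest p. Their summed signal over 25 markers was 89555 to 166638 without ethanol and 133678 to 162263 with it, ranges that overlap. Gfap, an astrocyte marker, had signals of 534, 61.9, 2102 and 2461 without ethanol and 6058, 1281, 668 and 8284 with it, which overlap. With ethanol it was higher on Ethanol and FGF2 replicate 1 and Ethanol and TGF-beta1 replicate 2, as Fn1 was. Of 24 oligodendrocyte lineage markers on the array, 13 passed the filter. Of these 13, 5 were at an unadjusted p under 0.05, the median was 0.43, and Lhfpl3 (0.90), Omg (1.37) and Opcml (0.77) had the smallest p. Summed over the 24, the signal was 22388 to 32492 without ethanol and 23980 to 33813 with it, ranges that overlap. Sox10, Mbp and Mog did not exceed 101, 48.7 and 70.5, while Pdgfra lay between 205 and 741. The astrocyte median ran from 0.03 without FGF2 replicate 1 to 0.35 without FGF2 replicate 2, and the oligodendrocyte median from 0.24 without TGF-beta1 replicate 1 to 0.52 without FGF2 replicate 1.

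Among surface and signalling lists, 2 of 15 genes of the list of LDL receptor family and sorting receptors rose (Lrp1 of the first kind and Sorcs2 of the second, median 0.38). Vldlr, the very low density lipoprotein receptor, had signals of 1681, 2002, 1368 and 1674 without ethanol and 6949.8, 2699, 2189 and 3466 with it. Its arrays were apart, but its value of 1.04 did not pass (adjusted p 0.132). Collagens, laminins and matrix genes had Col27a1 called of 40 (median 0.25, from 0.05 without Ethanol and TGF-beta1 replicate 2 to 0.54 without Ethanol and TGF-beta1 replicate 1). TGF-beta targets had a median of 0.54, from 0.22 to 0.98 with 1 array left out (lowest without Ethanol and FGF2 replicate 1, highest without replicate 1 of Ethanol and TGF-beta1). They had 0 calls of 17 and 1 at an unadjusted p under 0.05, with Junb (1.19), Bhlhe40 (0.67) and Smad7 (0.64) of smallest p. Wnt and Notch pathway genes had medians of 0.04 and 0.06, with Fzd3 the only call in them. Fzd2, another Wnt receptor, stood at -0.96 (adjusted p 0.0960), the Notch ligand Dll1 at 0.79 and the Notch target Hey1 at -0.77. In the imprinted list of 14, Mest fell and Plagl1 rose. The Wnt median ran from -0.01 without TGF-beta1 replicate 1 to 0.08 without FGF2 replicate 2 and the Notch median from -0.03 without Ethanol and FGF2 replicate 2 to 0.09 without TGF-beta1 replicate 2.

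Stress lists had 0 calls by limma. Of ATF4 targets, which answer to amino acid shortage, 17 of 18 lay above 0 with a median of 0.41. Besides Vldlr, Slc3a2 (0.79) and Nupr1 (1.80) had the smallest p, and 4 were at an unadjusted p under 0.05. Of unfolded protein response genes 25 of 26 lay above 0 with a median of 0.26, and 6 were at that level. The transcription factor Xbp1 stood at 0.77 (adjusted p 0.222), its splicing enzyme Ern1 at 0.73 and the chaperone Dnajb9 at 0.55. Lysosome and autophagy genes had a median of 0.22, with 29 of 34 above 0 and 6 at that level, and Bnip3 (0.61), Wipi1 (0.60) and Ctsl (0.73) of smallest p. The ATF4 median ran from 0.18 without Ethanol and FGF2 replicate 1 to 0.66 without Ethanol and TGF-beta1 replicate 1, and that of the unfolded protein response from 0.17 without FGF2 replicate 1 to 0.36 without FGF2 replicate 2. Without both arrays at odds with their labels, 21 of 26 unfolded protein response genes lay above 0 (median 0.26). For ATF4 targets it was then 16 of 18 (median 0.28), and for lysosome and autophagy genes 27 of 33 (median 0.20).

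Enzymes of alcohol and aldehyde metabolism had a median of -0.01, 0 calls of 16 and 2 at an unadjusted p under 0.05, near the 10.9% of all genes. Aldh2, the mitochondrial enzyme that clears acetaldehyde, stood at -0.43 (adjusted p 0.535), Rdh10, a retinol dehydrogenase, at 0.60 and Acss1, which activates acetate, at -0.65. Antioxidant genes had a median of -0.01, 0 of 29 called and 5 at that level, with Mt2 (0.84), Gsta4 (-0.80) and Prdx4 (-0.84) of smallest p. Of p53 targets and apoptosis genes 0 of 31 were called and 0 were at that level (Gadd45g at 0.74, Bcl2l1 at 0.44 and Bid at -0.41). Heat shock genes had 0 of 25 called and 3 at that level, with Hspa1b (0.86), Hspd1 (-0.41) and Hspe1 (-0.38). Glycolysis and hypoxia genes had 0 of 23 called and 0 at that level, with Hk2 (-0.67), Vegfa (0.56) and Tpi1 (-0.48), and interferon response genes 0 of 17 and 2, with Socs3 (1.67), Ifit2 (-0.72) and Ifi35 (-0.64). The alcohol list's median ran from -0.10 without Ethanol and FGF2 replicate 1 to 0.09 without TGF-beta1 replicate 1 and the antioxidant median from -0.06 without FGF2 replicate 1 to 0.07 without Ethanol and TGF-beta1 replicate 1.

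Growth arrest and quiescence genes had a median of 0.13, 0 calls of 32 by limma and 5 at an unadjusted p under 0.05, with Foxo3 (0.42), Id4 (1.80) and Gas1 (0.57) of smallest p. Of clock genes 0 of 17 were called and 2 were at that level. Rora, a nuclear receptor of the clock, was the nearest, with 381, 435, 411 and 317 without ethanol and 838, 586, 713 and 741 with it. Its arrays did not overlap, and its value was 0.86 with an adjusted p of 0.0545, before Nr1d1 (0.57) and Cry1 (0.48). Histone lysine modifying enzymes had a median of 0.12, 0 of 61 called and 6 at that level, with Kdm3a (0.46), Kdm7a (0.43) and Hdac1 (-0.45) of smallest p. Their medians ran, for growth arrest genes, from 0.10 without TGF-beta1 replicate 1 to 0.27 without FGF2 replicate 1, and, for histone enzymes, from 0.07 without FGF2 replicate 2 to 0.15 without FGF2 replicate 1.

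Lists of nucleotide, lipid, RNA and protein synthesis had medians from -0.23 to 0.19. Purine and pyrimidine synthesis had a median of -0.23 with Prps1 called of 24. Its members Adsl and Cad, which act in purine and pyrimidine synthesis, stood at -0.51 and -0.61 and did not pass. Cholesterol synthesis and SREBP targets had a median of -0.15 with Elovl6 called of 29, ahead of Idi1 (-0.83) and Stard4 (-0.56), and ribosome biogenesis genes -0.11 with Dkc1 called of 49, ahead of Nolc1 (-0.58) and Gar1 (-0.43). The folate and methionine cycle had a median of -0.15, 0 of 21 called and 2 at an unadjusted p under 0.05, with Ahcy (-0.62), Mthfd1l (-0.74) and Mthfd2l (0.46) of smallest p. The purine and pyrimidine median ran from -0.30 without TGF-beta1 replicate 2 to -0.11 without TGF-beta1 replicate 1, the cholesterol median from -0.25 without FGF2 replicate 1 to 0.01 without TGF-beta1 replicate 1. That of ribosome biogenesis ran from -0.26 without FGF2 replicate 1 to -0.0008 without FGF2 replicate 2.

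Respiratory chain subunits had a median of -0.12 with 15 of 68 above 0, 0 called and 2 at an unadjusted p under 0.05 (Atp5k at -0.42, Ndufa1 at -0.41 and Ndufb8 at -0.31). Proteasome subunits had -0.09 with 6 of 31 above 0, 0 called and 1 at that level (Psmd7 at -0.44, Psmb5 at -0.49 and Psma7 at -0.25). Splicing genes had -0.12 with 0 of 50 called and 4 at that level (Hnrnpd at -0.61, Snrpb at -0.67 and Prpf31 at -0.45), and nuclear pore and transport genes -0.09 with 0 of 32 and 5 (Ipo11 at -0.52, Nup210 at -0.86 and Cse1l at -0.56). Translation factors had 0.13 with 0 of 35 and 1 (Eif4e at -0.51, Eif3f at 0.37 and Eif3a at 0.30), and tRNA synthetases 0.03 with 0 of 21 and 1 (Kars at -0.53, Qars at 0.24 and Eprs at 0.22). Cytosolic ribosomal proteins had a median of 0.19 with 36 of 41 above 0, which became 0.02 with 22 of 41 above 0 without the 2 arrays at odds with their labels. 0 were called and 0 were at an unadjusted p under 0.05 (Rpl7 at 0.25, Rps27 at 0.64 and Rplp0 at 0.24). The medians of 10 lists changed sign under at least 1 setting: tRNA synthetases, heat shock, cholesterol synthesis, antioxidant, alcohol metabolism, glycolysis, Notch, Wnt, imprinted and ribosomal protein genes. The respiratory chain median ran from -0.21 without Ethanol and FGF2 replicate 1 to -0.06 without Ethanol and TGF-beta1 replicate 2 and the proteasome median from -0.21 without Ethanol and FGF2 replicate 1 to -0.04 without Ethanol and TGF-beta1 replicate 1. For splicing it was -0.21 without FGF2 replicate 1 to -0.10 without FGF2 replicate 2 and for the nuclear pore -0.16 without FGF2 replicate 1 to -0.03 without Ethanol and TGF-beta1 replicate 1. Translation factors ran from 0.04 without Ethanol and FGF2 replicate 1 to 0.16 without TGF-beta1 replicate 2 and tRNA synthetases from -0.22 without Ethanol and FGF2 replicate 1 to 0.13 without Ethanol and FGF2 replicate 2. Ribosomal proteins ran from 0.03 without Ethanol and FGF2 replicate 1 to 0.29 without TGF-beta1 replicate 2.

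**Figure D3:**
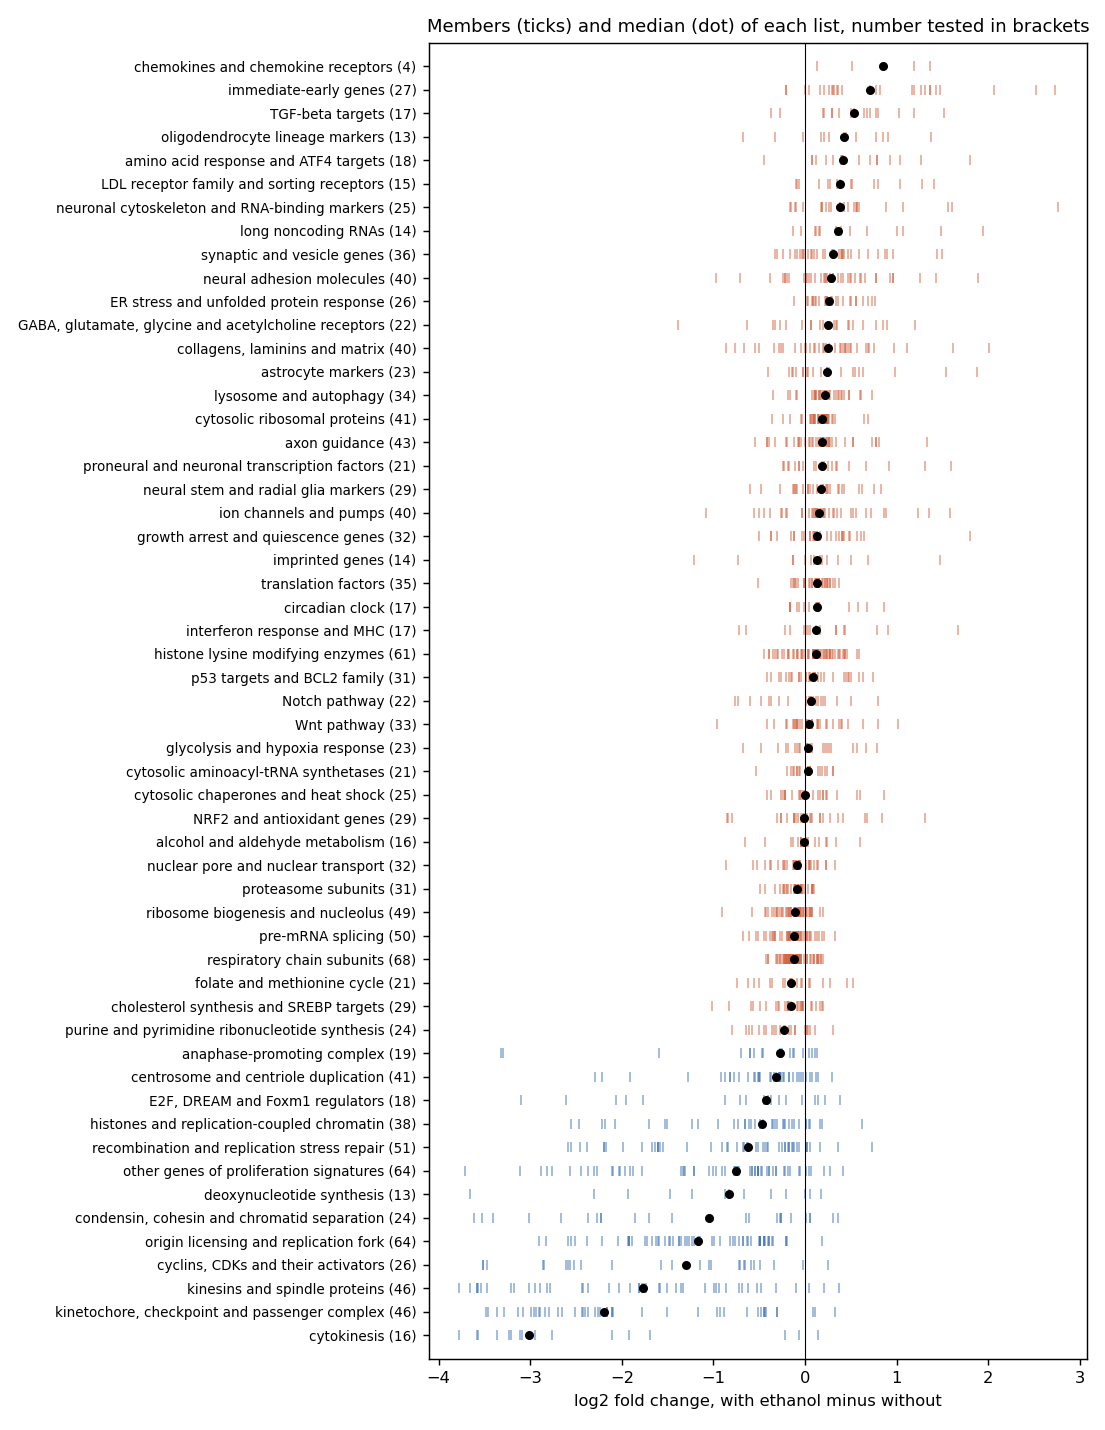
Log2 fold changes (with ethanol minus without) of the tested members of each list, as ticks, with the median as a dot and the number tested in brackets. Blue lists are cell division lists, whose medians run from -3.02 to -0.27, and orange lists are the 42 others, whose medians run from -0.23 to 0.85.

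Calls inside and outside the cell division lists were recounted with arrays left out. With 1 array left out, falls in the cell division lists numbered 111 to 199, falls outside 7 to 56 and rises outside 3 to 52. With each of the 8 left out in turn, 110 of the 178 cell division falls passed every time, against 7 of the 31 other falls and 3 of the 29 rises. The fewest rises came when TGF-beta1 replicate 1 (3) or replicate 2 of Ethanol and TGF-beta1 (4) was left out, and the most falls without FGF2 replicate 2 (53) or the array labelled Ethanol and FGF2 replicate 1 (56). Without both arrays at odds with their labels, 148 genes passed, 120 of them cell division falls, 12 falls and 16 rises outside. Of the 60 genes called outside with all arrays, 15 passed again: Fam111a, D17H6S56E-5, Bora, Myb, BC055324, Dnajc9 and Rps6ka6 among falls, and Nkain2, Egr3, Insm1, Cpt1a, Fzd3, 4930402H24Rik, Ackr3 and Sorcs2 among rises. Fam111a then fell by 2.57 and Nkain2 rose by 1.45. The difference of the ethanol effect between the growth factors as labelled gave 0 calls (limma, smallest adjusted p 0.831), with 484 genes at an unadjusted p under 0.05, 10 of them among the 238. Each labelled ethanol group holds 1 of the arrays at odds with their labels, so this test cannot show whether the ethanol effect differs between growth factors.

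**Figure D4:**
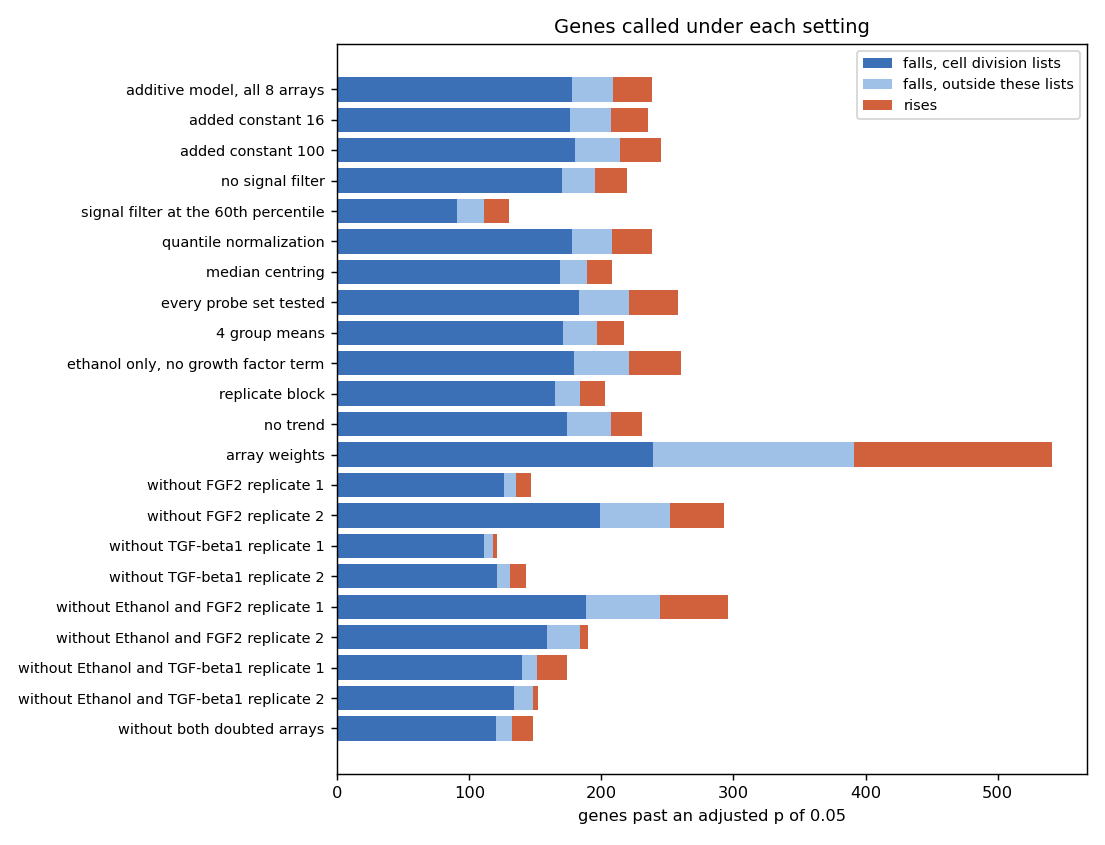
Genes past an adjusted p of 0.05 under each setting, split into falls of the cell division lists, other falls and rises. The doubted arrays are the 2 at odds with their labels. The total runs from 121 without TGF-beta1 replicate 1 to 541 with array weights.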

How the data were processed

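RNA of NS5 cells was hybridized to 8 Affymetrix mouse arrays. The deposited values are linear signal intensities, 1 per probe set and array, made by the authors with MAS5 and GCOS per the submitters' processing notes (versions not given in the sources used here). The 2% trimmed mean was 500.0 on every array. Of 45101 probe sets, 64 were controls, 34945 had 1 gene symbol, 932 several and 9160 none. Only those with 1 symbol were used (18193 genes). 34741 of them matched RefSeq (GRCm38.p6) by identifier, and 0 symbols changed. The probe set of highest mean log2 signal stood for each gene. A constant of 23.7 (the 25th percentile over the whole table) was added to each intensity before log2 was taken. Genes whose mean reached the 40th percentile (6.40) were tested (10916).

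The model had terms for ethanol and growth factor as labelled (limma 3.58.1 in R 4.3.3, empirical Bayes with a trend, 5 residual and 5.06 prior degrees of freedom). P-values are two-sided and adjusted by Benjamini-Hochberg over all genes tested. SE are moderated standard errors and errors after ± are SE. The script was tested on simulated data. The number of arrays limits the precision, and no detection calls or scan dates were used.

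Members and lists were chosen with earlier results of these data known, and 1 list is not reported here. Outside the cell division lists, the rule named the 20 falls and 20 rises of largest change past the threshold whose arrays did not overlap and whose higher mean was at least 100. It further named up to 3 genes of each cell division list, all called members of the other lists or else up to 3 of smallest p, and the immediate-early, chemokine and long noncoding RNA lists whole. Other called genes, and members that did not pass in the cell division lists, were named after their values were seen. Alternatives covered the constant, filter, scaling, probe sets, model terms, replicate block, array weights and left-out arrays.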

Additional observations from a re-analysis of the deposited data

Results flagged for a closer look

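For each gene called outside the cell division lists, on the log2 scale, and for the median signal and the Gapdh and Actb 3'/5' ratios, the 4 arrays of a condition were searched for 1 array far from the other 3. Of 126 sets of 4 values 7 stood out, and chance gives about 1 in 20. Without ethanol, FGF2 replicate 2 was low for Nrm, at 126.5 against 299.3 to 318.2, and for Selenoh, at 3561 against 6730 to 7424. With ethanol, the array labelled Ethanol and FGF2 replicate 1 was high for BC055324, at 350.0 against 236.0 to 249.3, and for Hdgfl3, at 1119 against 876.6 to 891.6. Replicate 1 of Ethanol and TGF-beta1 was low for Sox9, at 6111 against 7504 to 7736, and for Egr3, at 203.9 against 990.0 to 1338. Ethanol and TGF-beta1 replicate 2 was low for Col27a1, at 412.0 against 738.9 to 798.8. The cause of these values was not tested.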

How the results depend on the processing

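The 238 genes called, 178 cell division falls, 31 other falls and 29 other rises moved within 1.5 times under added constants of 16 and 100, no filter, quantile scaling, every probe set tested, 4 group means, ethanol as the only term and no trend. A filter at the 60th percentile gave 130 calls (91 cell division falls, 20 other falls, 19 other rises), having tested fewer genes. Median centring, which moved the median of all genes from 0.03 to -0.05, gave 20 other falls and 19 other rises. Array weights gave 541 calls, with 152 other falls and 150 other rises, and the cause was not tested. Without both arrays at odds with their labels there were 148 calls (12 other falls, 16 other rises). With the genes of all 8 arrays kept, an alternative chosen after seeing the data, there were 141 (116 cell division falls, 11 other falls, 14 other rises). With 1 array left out in turn, calls ran from 121 to 296, cell division falls from 111 to 199, other falls from 7 to 56 and other rises from 3 to 52. Hdgfl3 ran from -0.013 to 1.00, with -0.013 without Ethanol and FGF2 replicate 2 and -0.011 without replicate 1 of Ethanol and TGF-beta1, where another of its probe sets had the highest mean. Fancb, a cell division fall, was at 0.24 without TGF-beta1 replicate 2 for the same reason. List medians were recomputed under 21 settings, also after seeing the data: all 13 cell division lists and 32 of the 42 others kept their sign.

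The labels do not say that replicate numbers pair the samples. Deviations of same-numbered arrays from their group means correlated at 0.466 between FGF2 and TGF-beta1, both without ethanol. Between Ethanol and FGF2 and Ethanol and TGF-beta1 the correlation was -0.438, but both replicate 1 arrays there are at odds with their labels. The other correlations lay between -0.132 and 0.0457. These values cannot decide whether replicate numbers pair the samples, and the numbers were not taken as pairs. With the replicate block, 203 genes passed, with 19 other falls and 19 other rises.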
